A study of Mus musculus with 8 samples.

Results

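Runx1 regions deep inside gene bodies were examined in EML_C1, a mouse haematopoietic progenitor line that grows on stem cell factor. Peaks of the 2 Runx1 replicates were merged, and the 44026 regions to which both replicates contributed were kept. A region was taken as deep intragenic when it lay wholly within the span of a protein-coding gene, more than 10 kb from every end of every protein-coding gene, and touched no H3K27me3 peak of either replicate. These criteria gave 11055 regions, 25.1% of all Runx1 regions found in both replicates. The members were thus chosen by their Runx1 peaks, the lack of an H3K27me3 peak and their position, so their number and Runx1 folds are given as a description. Another 904 regions met the position criteria but touched the mark.

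The series mapped Runx1, Ezh2 and H3K27me3 by chromatin immunoprecipitation followed by sequencing, with 2 replicates per antibody and 2 input libraries. All libraries came from the same untreated line, labelled as C57BL/6 at passage 4 to 5 and cultured with 200 ng/ml mSCF, so no genotype or treatment was compared. Chromatin for Runx1 and Ezh2 was fixed with 2 mM DSG for 60 min and 1% formaldehyde for 60 min, and for H3K27me3 only with 1% formaldehyde, for 10 min. By their titles, 1 input belonged to Ezh2 and Runx1 and the other to H3K27me3. Whether the replicates were grown separately is not stated in the labels, and their spread may be technical. The line is a single culture model, and no expression data were used here to check its state. Every library is described by the authors' peak list, and the fold enrichment quoted below is the linear ratio over background that their peak caller wrote for each peak. For a region, the highest fold of its peaks in each replicate was used, and ± gives the SD over the 2 replicates. The depth of the libraries is unknown, since no read totals accompany the lists.

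Runx1 is the DNA-binding subunit of core binding factor. With its partner Cbfb it binds the RUNX motif at promoters and, in blood cells, at many enhancers that lie in introns or between genes, where it works with GATA, ETS and SCL factors. It is required for the emergence of haematopoietic stem cells, and its own gene has a distal and a proximal promoter and a known blood enhancer downstream of the distal one. H3K27me3, set by Polycomb repressive complex 2 with Ezh2 as its catalytic subunit, marks repressed chromatin, so the regions described here are Runx1 sites in gene interiors outside that mark. The gene table used gives no exons, so introns and exons were not told apart.

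A small share of the deep regions lay on annotated internal starts, and for these the sequence under the peak can be shown. Of the 11055 regions, 285 (2.58%) held a transcript start listed in RefSeq (assembly GRCm38.p6, the coordinates of mm10), beside 16.6% of all Runx1 regions and 2.13% of unmarked regions more than 10 kb from any gene. In 225 of these regions the start belonged to the host gene itself, as an alternative promoter, and in 82 it belonged to a lncRNA gene within the host, with 22 regions holding both. The list of starts used held none for some host genes, such as Xkr4 and Rb1cc1. Members at unlisted starts may thus have been missed, and the share of 2.58% may be too low. For 213 regions the Runx1 summit of replicate 1 fell in a promoter window of 300 bases, from 250 before to 50 after a start. The stretches below are the 40 bases either side of the summit, cut at the start, for the 6 hosts with the highest mean fold among summits at least 20 bases before a start. They show what lay under the strongest of these summits only. The strongest members of all, in Ak5, Plekha2 and Selp, held no listed start, and their sequence was not seen. The stretches are written 5′ to 3′ in the direction of the transcript, and capitals mark GGGCGG (the GC box), CCACGCCC (a form of the box bound by Krüppel-like factors) and TGTGGT (the RUNX motif), each on either strand.
Sertad2: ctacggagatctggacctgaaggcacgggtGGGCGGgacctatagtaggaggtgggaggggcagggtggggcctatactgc
Pcgf5: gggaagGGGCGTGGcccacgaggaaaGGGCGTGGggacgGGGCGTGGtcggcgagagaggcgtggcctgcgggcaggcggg
Tbc1d1: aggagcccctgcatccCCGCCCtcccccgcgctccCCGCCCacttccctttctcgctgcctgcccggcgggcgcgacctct
Itprid2: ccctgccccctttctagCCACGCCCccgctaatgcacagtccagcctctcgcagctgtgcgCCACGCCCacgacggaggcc
Iqgap1: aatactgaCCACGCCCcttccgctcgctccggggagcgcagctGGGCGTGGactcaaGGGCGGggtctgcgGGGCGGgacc
Gatad2a: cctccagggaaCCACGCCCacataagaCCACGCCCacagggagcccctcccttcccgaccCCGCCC

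All 6 stretches held at least 1 GC box or KLF-type box and none held TGTGGT. They lie at chr11:20631824-20631904 (plus strand) for Sertad2, chr19:36409583-36409663 (plus) for Pcgf5, chr5:64230256-64230336 (plus) for Tbc1d1, chr2:79635163-79635243 (minus) for the lncRNA gene Gm46751 inside Itprid2, chr7:80803336-80803416 (minus) for Iqgap1 and chr8:69974384-69974449 (minus) for Gatad2a. Runx1 folds in replicates 1 and 2 were 154 and 131 at Sertad2, a transcriptional coregulator gene, and 127 and 109 at Pcgf5, a Polycomb repressive complex 1 gene. They were 115 and 92.2 at Tbc1d1, a Rab GTPase-activating gene, and 102 and 88.9 at Itprid2. Replicate 1 was the higher in each of these, as it was at Iqgap1, a scaffold of the actin cytoskeleton (98.1 and 79.8), and at Gatad2a, a subunit of the NuRD complex (77.8 and 64.4).

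The next 4 stretches show, for contrast, the hosts with the highest fold among summits that had TGTGGT in the same 81 bases.
Cdyl: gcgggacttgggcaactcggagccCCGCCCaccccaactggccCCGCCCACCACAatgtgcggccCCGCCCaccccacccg
Etv6: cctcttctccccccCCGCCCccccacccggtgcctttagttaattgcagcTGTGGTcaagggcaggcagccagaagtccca
Mad1l1: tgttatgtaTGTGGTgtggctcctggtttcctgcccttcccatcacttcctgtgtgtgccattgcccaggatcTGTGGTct
Thsd7b: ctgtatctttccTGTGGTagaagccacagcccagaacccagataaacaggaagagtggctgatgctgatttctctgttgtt

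They lie at chr13:35741196-35741276 (plus) for Cdyl, a chromatin reader gene, chr6:134186537-134186617 (minus) for the lncRNA gene Gm52920 inside the ETS factor gene Etv6, chr5:140174989-140175069 (minus) for Mad1l1, a spindle checkpoint gene, and chr1:129616247-129616327 (minus) for the lncRNA gene Gm36347 inside Thsd7b. Cdyl held the RUNX motif directly beside a GC box, and its Runx1 folds were 75.1 and 58.1. Folds were 31.8 and 40.2 at Etv6 and 23.2 and 25.4 at Mad1l1, and 14.6 and 22.4 at Thsd7b. As the first 6 were picked as the highest, these 4 had to be lower, and nothing is read from that.

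Over all 213 windows, TGTGGT was found in 52 (24.4%), beside 16.8% of all 32851 promoter windows of the table. GGGCGG was found in 118 (55.4%), beside 35.7%, and CCACGCCC in 30 (14.1%), beside 5.33%. Another comparison is with 4454 windows holding a summit of an unmarked Runx1 region within 1 kb of a gene end. There TGTGGT was in 13.7%, GGGCGG in 77.7% and CCACGCCC in 15.2%, so the GC-rich motifs were no more frequent in deep regions. The 2 GC-rich motifs were chosen after the strongest sequences had been read, and those windows are counted again in the class over a fold of 20. The shares of both motifs in that class thus partly restate the choice. GGGCGG and CCACGCCC were more frequent in the strongest windows than in the weakest, while TGTGGT showed no such rise. Of 36 windows in members with a mean fold over 20, 32 (88.9%) held GGGCGG and 6 (16.7%) held TGTGGT. Of 83 windows with a fold of 5 to 20, 50 (60.2%) held GGGCGG and 21 (25.3%) held TGTGGT. Of 94 windows with a fold up to 5, 36 (38.3%) held GGGCGG and 25 (26.6%) held TGTGGT. The share of TGTGGT in the strongest windows rests on 6 windows and was near the 16.8% of all windows. CCACGCCC was in 12 of the strongest windows (33.3%), in 9 at folds of 5 to 20 (10.8%) and in 9 of the weakest (9.57%).

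Base composition moved with this order, as the median GC content of the windows was 68.3% in the strongest, 59.3% at folds of 5 to 20 and 55.7% in the weakest, against 52.7% over all windows, and its part in the motif counts was not tested. The order of GGGCGG was not peculiar to internal starts. In windows with a summit of an unmarked Runx1 region within 1 kb of a gene end, GGGCGG was in 93.9% of 954 windows with a fold over 20 and in 64.0% of 1366 with a fold up to 5, and TGTGGT was in 12.2% and 14.7%. A match of letters is a description and does not show binding, and most deep regions lie outside the sequences used here.

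**Figure D1:**
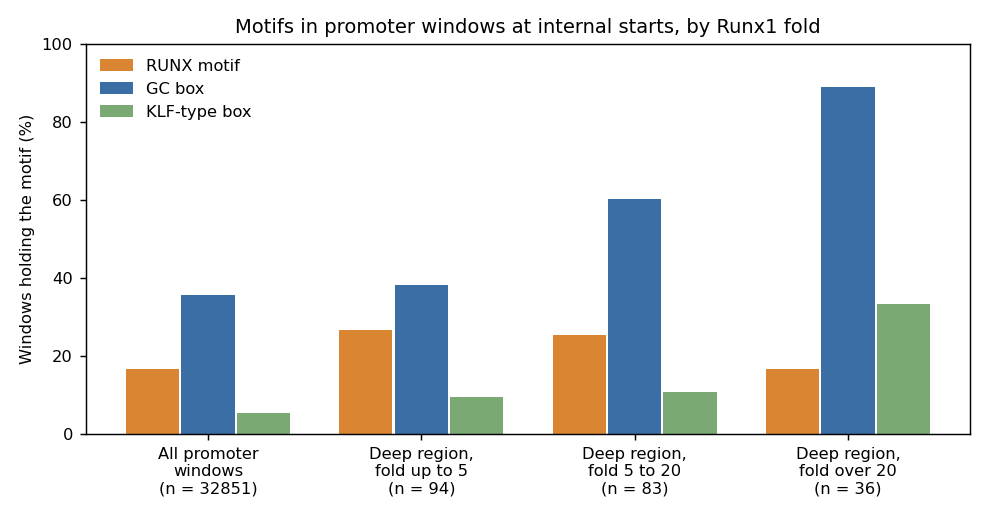
Share of 300-base promoter windows (vertical axis, percent) that hold the RUNX motif, the GC box or the KLF-type box on either strand, for all windows of the table and for windows with the replicate 1 summit of a deep region, by mean Runx1 fold. The GC box goes from 38.3% of windows at a fold up to 5 to 88.9% over 20. The RUNX motif is in 26.6% at a fold up to 5, 25.3% at 5 to 20 and 16.7% (6 of 36 windows) over 20.

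Members that held a listed start were wider and higher than the others. Their median fold was 5.56 in replicate 1 and 5.94 in replicate 2 and their median width 584 bp, against 3.98, 5.07 and 387 bp for the 10568 members more than 1 kb from every listed start. A mean fold over 20 was reached by 49 of the 285 (17.2%) and by 518 of the 10568 (4.90%). Strong deep regions were thus more frequent at listed starts in share, while most of them by number lay away from any listed start. As the list held no start of some host genes, such as Xkr4, members at unlisted starts would count among those away from one. Among the 10 strongest members, 4 held a listed start (Sertad2, Bcl9, Pcgf5 and Tbc1d1).

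As a group the deep regions were moderate Runx1 peaks, found in both replicates by the rule and with summits at nearly the same place. Folds ranged from 1.36 to 335 in replicate 1 and from 1.38 to 336 in replicate 2, with medians of 4.01 and 5.08. The interquartile range of the mean fold was 3.18 to 7.67, and 1892 (17.1%) were over 10, 575 (5.20%) over 20, 60 over 50 and 9 over 100. Replicate 2 gave the higher fold in 8558 members (77.4%), against 64.6% of all other Runx1 regions. Across members, which are not replicates, the folds of the 2 libraries had a Spearman correlation of 0.872 and a Pearson correlation of 0.923 on the log2 scale. The strongest summits of the replicates lay a median of 23 bp apart, and within 50 bp in 78.2% of members. Unmarked regions more than 10 kb from any gene were alike, with a Spearman correlation of 0.864, 24 bp and 77.9%. Unmarked regions within 1 kb of a gene end had 0.955, 18 bp and 81.4%. The median member was 391 bp wide.

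Against the other Runx1 regions outside the mark, the deep regions resembled those between genes and were lower than those at gene ends. Median folds in replicates 1 and 2 were 4.11 and 5.19 in 8876 regions more than 10 kb from any gene, 3.98 and 4.85 in 10681 regions 1 to 10 kb from a gene end, and 5.92 and 6.17 in 9738 regions within 1 kb of one. The deep regions that touched H3K27me3 had 3.67 and 4.397. The gap between deep regions and gene ends was seen in both replicates and was larger in replicate 1, while the gap to intergenic regions was smaller than the difference between the replicates. The shares over a fold of 20 were 5.20% of deep, 5.00% of intergenic and 15.6% of gene-end regions. These folds are of the same contrast that chose the members, and no test was run on them.

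**Figure D2:**
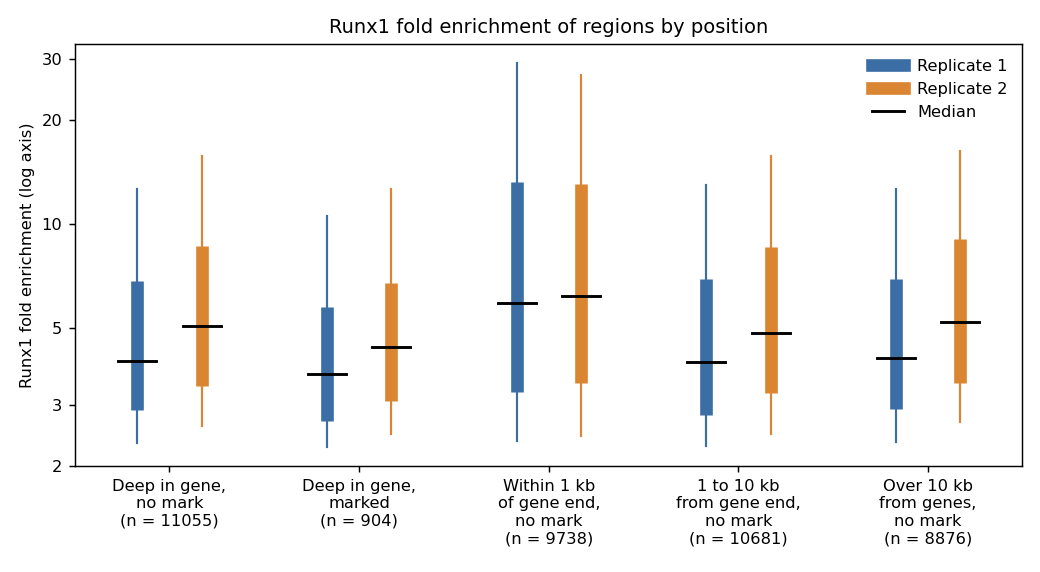
Runx1 fold enrichment (log axis) of regions found in both replicates, by position and H3K27me3, for replicate 1 and replicate 2; black lines are medians, thick bars the interquartile range and thin lines the 10th to 90th percentile of regions. Deep unmarked regions (medians 4.01 and 5.08) sit beside intergenic ones and below those at gene ends (5.92 and 6.17).

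By the authors' q-values, 8757 members reached a q of at most 0.01 in replicate 1 and 9803 in replicate 2. Both replicates did so in 8372 members (75.7%), beside 78.1% of all Runx1 regions. At 1e-05 it was 6141 (55.6%), beside 60.5%. The share at 0.01 was near those of unmarked regions 1 to 10 kb from a gene end (76.3%) and more than 10 kb from any gene (74.7%), while it was 88.3% within 1 kb of an end. Regions just inside the 10 kb limit, at Ccdc25 (10002 bp from an end, folds 8.70 and 11.5), Meikin (10006 bp, 3.43 and 6.75) and Ell (10006 bp, 12.7 and 16.98), did not stand apart from those just outside it, at Lsg1 (10000 bp, 9.23 and 11.2), Tmem245 (9997 bp, 2.79 and 2.89) and Sgms1 (9993 bp, 9.14 and 13.8). The 457 regions in the first kb inside had a median fold of 4.43 and the 469 in the last kb outside 4.78.

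Depth in the gene had little bearing on strength. Of the members, 3330 lay 10 to 20 kb from the nearest gene end, 4273 at 20 to 50 kb, 2162 at 50 to 100 kb and 1290 farther away. Median folds over these 4 bins stayed between 3.98 and 4.06 in replicate 1 and between 4.95 and 5.19 in replicate 2. For 8785 members with 1 host of known strand, the interior of the host was divided into 4 segments of equal length from its 5′ to its 3′ side. There were 16.98 members per Mb in the first segment, 15.7 in the second, 14.3 in the third and 14.0 in the last, on about 144 Mb each. Members were thus somewhat denser toward the 5′ side. The same order was seen without members near a listed start, of which 27.7% were in the first segment and 23.1% in the last.

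The strongest deep region lay in Ak5, an adenylate kinase gene, on chromosome 3 (152478259 to 152479906), with folds of 335 and 336 (335.5 ± 0.604, SD, n = 2). It stood far above every other member in both replicates, and as the input was not analysed here, the signal of the input at this place is not known. Next came Plekha2, a phosphoinositide-binding adaptor gene, on chromosome 8 (25066291 to 25068606) with 185 and 150 (168 ± 24.7), and Selp, the P-selectin gene of platelets and endothelium, on chromosome 1 (164135119 to 164136347) with 134 and 155. Bcl9, a coactivator gene of Wnt signalling, had 133 and 111 on chromosome 3 (97226685 to 97228417), and Atrnl1 had 122 and 116 on chromosome 19 (57993780 to 57994895), 138 kb from the nearest gene end. Lef1, a T lymphoid transcription factor gene that acts in Wnt signalling, had a region with 111 and 112 (112 ± 0.649) on chromosome 3 (131208235 to 131209288), 15.1 kb from the nearest gene end. In all of these both replicates were far above the median member.

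The widest member, in Gse1 on chromosome 8 (120535741 to 120539213), spanned 3473 bp, held a listed start and had folds of 21.9 and 20.7. Sema4d, a semaphorin gene of lymphocytes, had one of 2549 bp with 35.6 and 41.1, and the region in Plekha2 spanned 2316 bp. Nr3c1, the glucocorticoid receptor gene, had one of 2264 bp with folds of 14.4 and 13.5, and Prex1, a Rac activator gene, one of 2020 bp with 8.98 and 11.0. The 3 strongest members were also wide, with 1648 bp in Ak5, 2316 bp in Plekha2 and 1229 bp in Selp, against a median of 391 bp.

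Deep regions were spread over 3463 host genes. Of 9886 protein-coding genes with any sequence more than 10 kb from every gene end, called interior here, 35.0% hosted at least 1 deep region. The interior summed to 736 Mb, with 15.0 members per Mb. Among hosts 1420 had 1 member, 712 had 5 or more (7.20% of all genes with interior), 198 had 10 or more and 21 had 20 or more. Long genes have more room, and hosts had a median interior of 64.5 kb against 17.4 kb in genes without a member. An H3K27me3 peak of either replicate lay over 16.2% of the interior, while 7.56% of all Runx1 regions deep in genes touched one.

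The genes with the most members were Pde4d, a cAMP phosphodiesterase gene, with 56, Gse1 with 40, Runx1 with 37, Foxp1, a forkhead repressor gene of B cell development, with 32, and Snx29, a sorting nexin gene, with 30. Tiam1, a Rac activator gene, had 27. Rere, a corepressor gene, Maml3, a coactivator gene of Notch, and Creb5 had 25 each, and Acoxl had 24. Per 100 kb of interior the order differed, with 18.1 members in Runx1, 12.02 in Gse1 and 4.37 in Pde4d, against 1.50 over all interior. The strongest members of these genes were at Rere (75.1 and 74.8), Tiam1 (57.7 and 54.2) and Runx1 (42.2 and 61.7), whereas no member of Foxp1, Creb5 or Acoxl had a mean fold over 20.

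Among genes with at least 30 kb of interior, the densest was Pxn, which codes for the focal adhesion adaptor paxillin, with 34.1 members per 100 kb. Its 15 members all reached a q of at most 0.01 in both replicates, and the strongest had folds of 70.6 and 61.9. Pstpip1, a cytoskeletal adaptor gene of leukocytes, followed with 29.6 per 100 kb and Zfpm1, the gene of the GATA1 partner FOG1, with 9 members in 36.01 kb. Zfpm1 also had strong members, with medians of 17.4 and 16.4 over its 9 regions and a highest fold of 49.3 and 50.2 on chromosome 8 (122309148 to 122309790). The cytolinker gene Plec had 24.7 per 100 kb, Irak2, a kinase gene of interleukin 1 and Toll-like receptor signalling, 24.6, and Ago2, the Argonaute nuclease gene of RNA interference, 23.7. Ago2 differed from Pxn and Zfpm1 in strength, since its highest member had folds of 8.99 and 8.09. Adcy7, Rin3, Emilin2 and Klhl18 had between 19.5 and 21.2 per 100 kb.

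Another member lay within 12.5 kb of 7062 members (63.9%), and these formed 2304 groups, of which 316 held 5 or more. The same share was not computed over all Runx1 regions, so it is not read as a trait of deep regions. Peaks that did not touch were kept apart, as in Runx1, where 1 region ended at 92801288 and the next began at 92801425. Such neighbours add to the groups and to the members per gene. The largest group had 19 members over 69839 bp in Pip4k2a, a phosphoinositide kinase gene, on chromosome 2 (18916053 to 18985891), with a highest mean fold of 22.3. Rin3 on chromosome 12 had 18 members over 73269 bp, and Pxn on chromosome 5 had 15 over 36622 bp. Members in larger groups were about as high as single ones. Median folds were 4.08 and 5.17 in groups of 5 or more, 4.04 and 5.11 in groups of 2 to 4, and 3.92 and 5.02 in the 3993 members alone.

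The Runx1 gene itself (chromosome 16, 92601466 to 92826074, minus strand) held 37 deep regions in 205 kb of interior, none of its interior being under the mark. Most were low, with medians of 2.95 and 3.96, and 22 of the 37 reached a q of at most 0.01 in both replicates. 4 had a mean fold over 20. A region 172 kb from the 5′ end of the gene had folds of 42.2 and 61.7 (51.9 ± 13.8), one at 25.1 kb had 37.95 and 42.8, one at 205 kb had 28.1 and 32.0, and one at 129 kb had 19.0 and 22.3. The region at 25.1 kb (92800599 to 92801288) had a second region beside it at 24.3 kb with 16.6 and 18.4. The region at 129 kb (92696487 to 92697062) had beside it a weak one (2.73 and 2.86) that held a listed internal start.

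The other stem cell genes examined closely had fewer regions than Runx1 and lower highest peaks. Erg, an ETS factor gene of stem cells, carried H3K27me3 and Ezh2 at a gene end and no Runx1 there. It nevertheless held 13 deep regions, all between 127.6 and 211.5 kb from its 5′ end in a span of 227 kb, while the mark covered 26.6% of its interior. The highest Erg region (chromosome 16, 95434298 to 95435161) had folds of 17.3 and 19.4. Etv6, whose lncRNA start is shown above, held 17 regions, and the highest of the others had 12.1 and 10.5. Meis1, a homeobox gene of stem cells, held 7 regions with medians of 7.03 and 11.3, and in 5 of them both replicates were above 6. In Kit, the receptor of stem cell factor, 4 regions lay between 47.6 and 58.5 kb from the 5′ end, with folds from 2.73 to 4.96 in replicate 1 and from 2.61 to 9.19 in replicate 2. The replicates differed most at the last of these (4.15 and 9.19). Flt3, a receptor kinase gene of lymphoid progenitors, held 4 regions, the highest with 9.94 and 13.4. Bcl11a held none, and the 2 Runx1 regions deep in it touched the mark, which covered 80.9% of its interior.

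**Figure D3:**
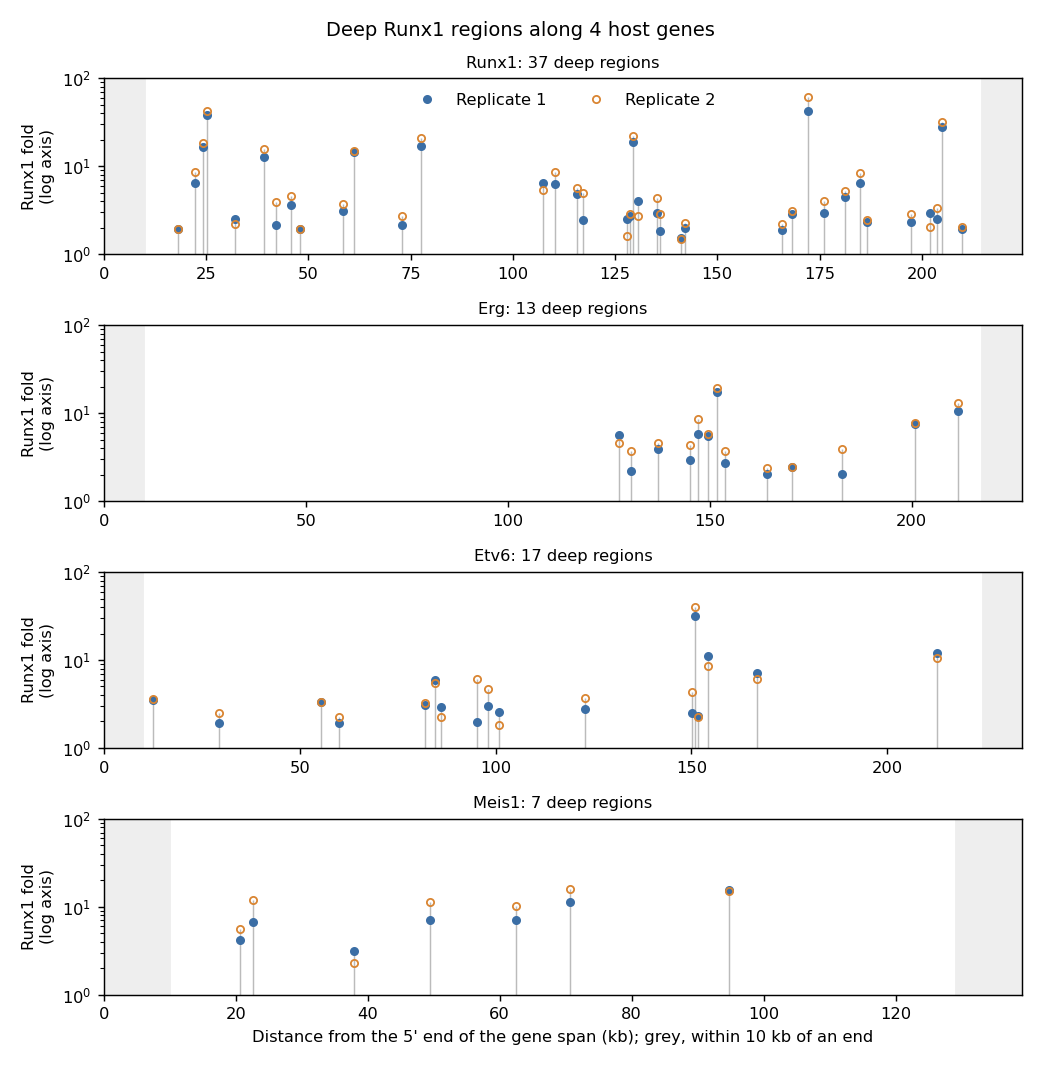
Deep Runx1 regions along the Runx1, Erg, Etv6 and Meis1 genes: distance from the 5′ end of the gene span (kb, horizontal) and Runx1 fold in replicates 1 and 2 (log axis, vertical), with grey bands within 10 kb of an end. In Runx1 a few regions, at 25.1, 172 and 205 kb among them, stand above many low ones, and in Erg all 13 lie beyond 127 kb.

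Genes of the blood lineages held deep regions at a higher density than genes with interior as a whole, with the erythroid and megakaryocytic list as the exception. For each list the counts below stand beside 35.0% of all genes with interior and 1.50 members per 100 kb. Interior under H3K27me3 counts in the lengths but could hold no member by the rule, so a low density is not read as fewer Runx1 regions. The median interior was 95.2 kb in the stem and progenitor list, 70.7 kb in the B lymphoid, 55.7 kb in the erythroid, 40.8 kb in the T lymphoid, 23.0 kb in the myeloid and 11.99 kb in the mast cell list, against 28.7 kb over all, so the shares of hosts are over genes of unequal length. Over all genes, 14.1% hosted a member with up to 20 kb of interior, 36.3% with 20 to 50 kb, 54.1% with 50 to 100 kb and 61.9% above 100 kb. Of 21 stem and progenitor regulators with interior, 13 hosted a member (61.9%), with 4.05 members per 100 kb. Runx1 alone gave 37 of their 118 members, followed by Etv6 and Erg, and Myb, Mecom and Cd34 were among the 8 without one. The list had medians of 3.65 and 4.48, below those of all members (4.01 and 5.08).

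Of 24 T lymphoid genes 15 hosted a member (62.5%), with 3.76 per 100 kb. Prkcq, a protein kinase C gene of T cell receptor signalling, had 12 regions and a highest fold of 12.8 and 21.5. Tcf12, an E protein gene, had 12, with 11.3 and 16.5 at the highest, and Tox 7, with 13.2 and 15.9. Bcl11b, Cd4, Lck and Il7r were among the 9 without a member. Of 20 B lymphoid genes 14 hosted one (70.0%), with 2.90 per 100 kb. Beside Foxp1 these were led by Aff3, with 12 regions and a highest fold of 17.8 and 21.8, and Plcg2, a phospholipase gene of B cell receptor signalling, whose 10 regions had medians of 6.51 and 6.46. Pax5 and Dntt had none. None of the 3 genes with the most members in either lymphoid list had a member with a mean fold over 20, whereas Lef1, on the T lymphoid list with its single member, had 111 and 112.

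Of 11 myeloid genes 7 hosted a member (63.6%), with 4.27 per 100 kb. Cux1, a homeobox gene, had 17 regions and a highest fold of 27.4 and 30.9, the Src family kinase gene Lyn had 5, and Zeb2 had 3. Of 10 mast cell, basophil and eosinophil genes 6 hosted one (60.0%), and their 8.71 members per 100 kb were the highest of the 10 lists, on 0.470 Mb of interior. Mitf, a transcription factor gene of mast cells, had 15 regions, the strongest with 19.2 and 26.9. Rab27b, a GTPase gene of granule secretion, had 12, with 16.1 and 26.2 at the highest, and Il1rl1, the interleukin 33 receptor gene, had 5. Mitf and Rab27b, with 194.4 and 142.5 kb of interior, gave most of the 41 members of this list and most of its interior. Of 11 erythroid and megakaryocytic genes 3 hosted a member (27.3%), with 0.529 per 100 kb. Epb41, a red cell membrane gene, had 3, with 27.2 and 31.7 at a region that held a listed start. Nfia had 2 and the von Willebrand factor gene Vwf 1, and Ank1, Sptb and Tfrc had none. Nfia alone gave 521 kb of the 1.13 Mb of interior in this list, and H3K27me3 covered 67.5% of the interior of Vwf.

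Signalling genes and chromatin regulators also held members at a density above 1.50 per 100 kb. Their median interiors were 45.7 kb in the cytokine and RAS list, 81.7 kb in the chromatin list and 139 kb in the adhesion list, so their shares of hosts are to be read beside those of long genes. Of 31 cytokine receptor, JAK-STAT and RAS signalling genes 19 hosted a member (61.3%), with 3.43 per 100 kb. Prkcb had 14, the Janus kinase gene Jak1 had 11 and Pik3r1, a regulatory subunit of phosphoinositide 3-kinase, 6, and the highest fold of these 3 genes was 7.53 and 12.5, in Prkcb. Of 40 Polycomb and chromatin regulators 25 hosted one (62.5%), with 2.45 per 100 kb. Arid1b, a subunit gene of the BAF remodelling complex, had 16 regions and a highest fold of 14.1 and 12.3, and the histone deacetylase gene Hdac4 had 11. The Polycomb repressive complex 2 genes Eed, Suz12 and Ezh1 were among the 15 without a member. Of 24 leukocyte adhesion and GTPase signalling genes 22 hosted a member (91.7%), the highest share of the 10 lists, with 3.19 per 100 kb. Only Dock1 and Itgb1 had none. The integrin gene Itga9 had 19 regions, although H3K27me3 covered 48.3% of its interior, Arhgap26, a GTPase-activating gene, had 17, and Prex1 had 16, with 22.2 and 30.6 at the strongest.

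Long neuronal genes served as a group from another tissue. Of 28, 11 hosted a member (39.3%), but on 37.8 Mb of interior they had 0.0767 members per 100 kb. The share of hosts was near that of all genes, although these genes had a median interior of 1165 kb against 28.7 kb. Magi2 had 7 regions, the strongest with 23.2 and 32.3 at 623 kb from the nearest gene end, Nlgn1 had 4 and Cntnap2, the longest of these 3, had 3. Of the 28 genes, 21 carried H3K27me3 at an end and 1 carried Runx1. Interior under the mark counts in their length too but could hold no member.

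**Figure D4:**
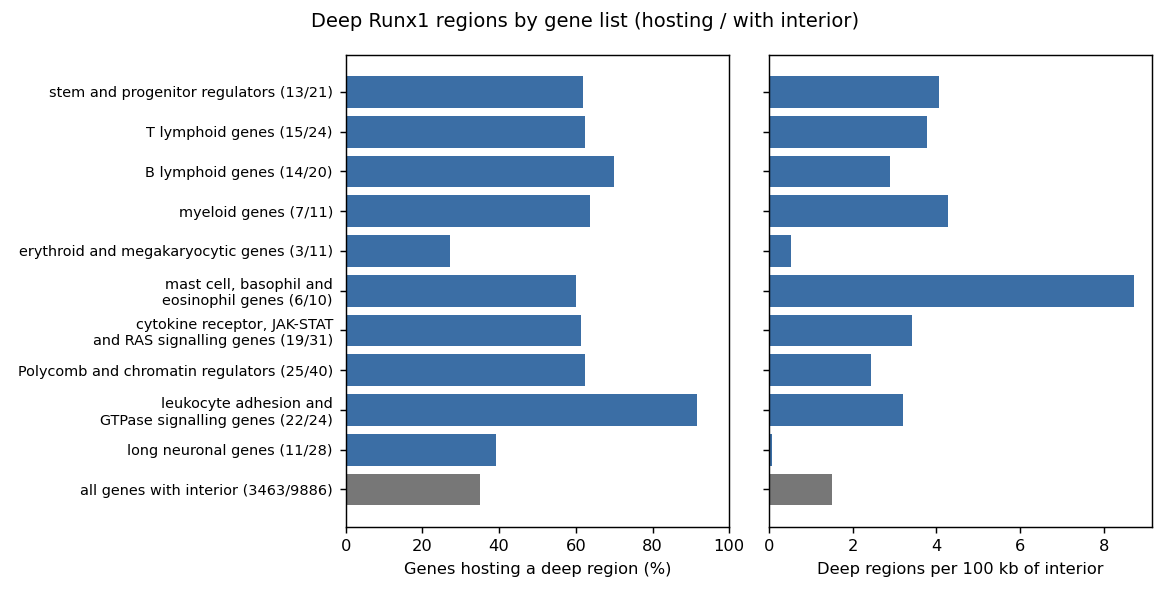
Share of genes that host a deep Runx1 region (left, percent) and deep regions per 100 kb of interior (right) for 10 gene lists and for all genes with interior (grey). Most blood lists sit at 60 to 70% and between 2.90 and 8.71 per 100 kb, while the erythroid list (27.3%, 0.529) and the long neuronal genes (39.3%, 0.0767) have lower densities. Interior under H3K27me3 counts in the lengths but could hold no member.

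Genes with a deep region had Runx1 at their ends more often than genes without one. A gene end was called for an antibody when a peak of each replicate lay within 1 kb of it. Of the 3463 hosts, 60.7% had Runx1 at an end, against 45.0% of the 6423 genes without a member and 50.5% of all genes with interior. H3K27me3 was at an end of 27.4% of hosts and 36.9% of the others, beside 33.5% of all, and Ezh2 at an end of 20.0% and 22.1%. Hosts are longer, so the shares were also taken within bins of interior length. Among genes with 50 to 100 kb, Runx1 was at an end of 66.5% of 889 hosts and 34.4% of 753 others, and above 100 kb of 49.8% of 1148 hosts and 12.4% of 708 others. H3K27me3 was less frequent in hosts in all 4 bins, as at 50 to 100 kb, with 25.1% against 50.5%. Since members touch no H3K27me3 by the rule, a gene under the mark has less room for one, and nothing is read from the H3K27me3 shares.

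**Figure D5:**
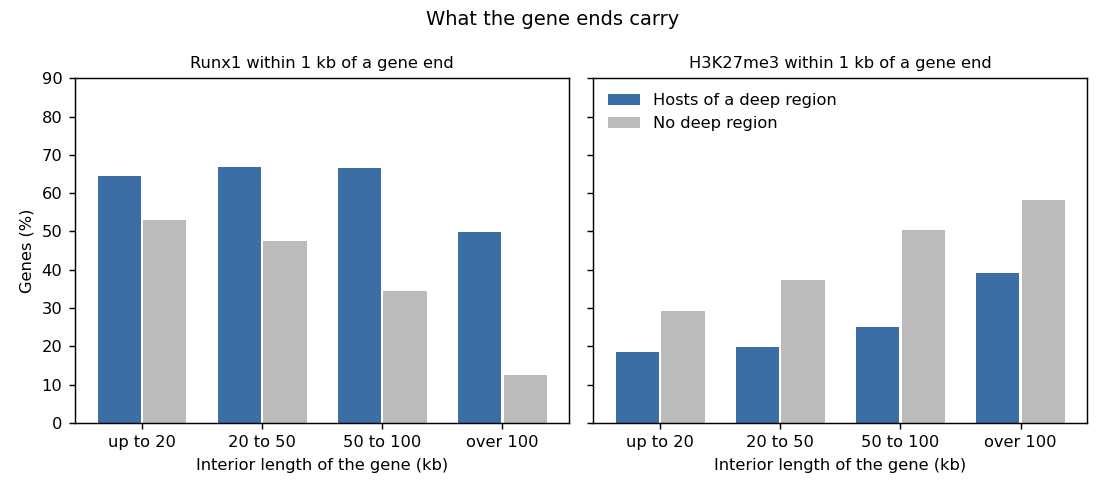
Share of genes (percent) with Runx1 (left) or H3K27me3 (right) within 1 kb of an end, for hosts of a deep region and for genes without one, by interior length in kb. In all 4 length bins hosts have Runx1 at an end more often, for example 66.5% against 34.4% at 50 to 100 kb, and H3K27me3 less often. The choice of members without the mark favours the lower H3K27me3 shares and bears on the Runx1 shares too.

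By density, genes with Runx1 and no H3K27me3 at an end held 3.01 members per 100 kb of interior, 6359 members in 4339 genes. Genes with H3K27me3 and no Runx1 at an end held 0.602, genes with both 1.82 and genes with neither 1.09. The members of the 2659 genes with the mark alone were no lower, with medians of 4.35 and 5.50 against 3.92 and 4.92 in genes with Runx1 alone. Members touch no H3K27me3 by the rule, so interior under the mark counts in these lengths but could hold none, and the lower densities of genes with the mark are not read as fewer Runx1 regions.

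Ezh2 peaks were not used to choose the members, but the rule left out regions with H3K27me3, the mark that Ezh2 sets. The choice thus favoured a low overlap with Ezh2, and nothing is read from the gap to all Runx1 regions. Without that exclusion, 270 of 11959 deep regions touched a peak of both Ezh2 replicates. A peak of both Ezh2 replicates touched 52 members (0.470%), beside 3.97% of all Runx1 regions and 1.04% of those outside the mark. With 1 Ezh2 replicate the counts were 147 in replicate 1 and 118 in replicate 2. The share was 0.811% in unmarked regions more than 10 kb from genes, 2.23% in unmarked regions at gene ends and 24.1% in the deep regions that touched the mark. The 52 members had median Ezh2 folds of 2.69 and 2.60 and Runx1 folds of 4.33 and 5.19. The highest Ezh2 was in Camk1d, a calmodulin-dependent kinase gene, on chromosome 2 (5379161 to 5379360), with Ezh2 folds of 5.55 and 4.27 and Runx1 folds of 2.48 and 2.08. A second region in Pcgf5 (chromosome 19, 36410018 to 36410525), beside the strong internal start shown above, had Ezh2 folds of 4.67 and 3.74, Cdk8, a kinase gene of Mediator, had 4.85 and 3.48, Wnt6 had 4.41 and 3.52 with a Runx1 fold of 16.2 and 13.9, and Cntnap5b had 4.37 and 3.38. When only Ezh2 peaks reaching a q-value of 0.01 were used, 10 members touched both replicates, so most of these overlaps involved weak Ezh2 peaks.

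Members were scarce on the X chromosome, with 157 in 33.3 Mb of interior, or 4.72 per Mb. On the autosomes the density was between 12.4 per Mb on chromosome 1 and 23.6 on chromosome 11. Where they occurred on the X chromosome they were about as high as elsewhere, with medians of 3.92 and 4.92. Only regions called in both replicates have a fold, so this likeness is not read as equal Runx1 signal. No deep region there touched H3K27me3. Unmarked Runx1 regions within 1 kb of a gene end numbered 256 on the X chromosome, with 966 protein-coding genes, and 555 on chromosome 1, with 1204. With a q of at most 0.01 in each Runx1 list the X chromosome had 3.03 members per Mb, against 11.4 over all interior.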

How the data were processed

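Each of the 6 libraries with an antibody had its own deposited peak list. Per the submitters' processing notes, Bowtie2 2.2.1, Picard, SAMtools and MACS2 2.0.10 were used with the build mm10; which step each served, and with which parameters, is not stated there. In the authors' lists the fold enrichment is a linear ratio, and p-values and q-values are given as -log10. The deposited score, 10 times a -log10 p- or q-value, was not used, and the 2 input libraries were not analysed here. Lists were merged with Python 3.11.15 (numpy 2.4.6, pandas 2.3.3); an overlap of 1 bp counted. Interval code was tested on simulated intervals. Gene spans and promoter sequences came from RefSeq tables of GRCm38.p6; a strand was taken from the promoter table. No sequence of chromosome 18 was shown, and a few genes that these rules name are not reported here. Of 290 listed symbols, 289 matched. Members, gene lists and rules were chosen with earlier results of these data known. The motif search planned for all summits was not run, as it needs a genome. No test was run, since the Runx1 values chose the members and the series compares no conditions. Named were the 10 hosts with the most members, the 10 densest with 30 kb or more of interior, the 10 strongest members, the 5 widest, the 5 highest in Ezh2, the 3 largest groups, up to 3 genes per list, and Runx1, Kit, Meis1, Erg, Bcl11a and Flt3. Others, such as list genes without a member and the hosts of printed sequences, were chosen after their values were seen. Alternatives covered the distance, the mark, peak thresholds, overlap and single replicates.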

Additional observations from a re-analysis of the deposited data

How the results depend on the processing

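No paired analysis was possible because the results come from no test and no groups were compared. Of 94 recomputed main values, 73 stayed within 1.5 times the main count or within the SD of the replicate medians, and 21 did not. With more than 20 kb from gene ends the hosts numbered 2247, myeloid hosts 4 and signalling hosts 12. The Ezh2 overlap moved in several settings: 270 members without the H3K27me3 exclusion, 112 with only regions marked in both replicates left out, 10 with Ezh2 peaks of a q of at most 0.01, 107 without H3K27me3 replicate 1, and 118 and 147 with 1 Ezh2 replicate. It stayed within 1.5 times of 52 without H3K27me3 replicate 2 (57) and with 1 Runx1 replicate (65 and 69). With a Runx1 q of at most 0.01 the median fold was 5.62. At 1e-05 there were 6142 members with a median of 7.11, and 31 touched Ezh2. Limiting each Runx1 list to its 10000 strongest peaks gave 1596 members, all with a q of at most 0.01, in 1079 hosts, with a median fold of 16.9 and 13 touching Ezh2. With 1 Runx1 replicate there were 15631 to 17425 members in 4298 to 4443 hosts, with a median fold of 3.17 to 3.52 and 9321 to 11784 at a q of at most 0.01. Without 1 H3K27me3 replicate, members numbered 11132 to 11449, hosts 3489 to 3598 and members at that q 8419 to 8654, with a median fold of 4.53 to 4.54. In alternatives added after the data were seen, TGTGGT or TGCGGT was in 31.5% of member windows, and GGGGCGGGG in 63.9% of the strongest. Unknown read depth limits how firmly a missing peak can be read.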
